A study of Mus musculus with 14 samples.

Results

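Gata1, Gata2, Klf1, Epor, Pf4, Itga2b and Cpa3 are genes by which red cell, platelet and mast cell fates are followed, and they were described here in mouse thymic T cell progenitors lacking the histone methyltransferase Ezh2, the tumour suppressor p53 (gene Trp53) or both, and in leukemias that arose in the absence of both. The 7 genes were taken by name: each had 1 probe on the array, found through the RefSeq accession given for the probe, among 20972 named genes. All 7 probes were measured on all 14 arrays and passed the filter used for testing, which asked for a signal well above background on at least 2 of 14 arrays, as did 14254 named genes and 12813 probes without a name. Gata1 and Cpa3 were well above background on 14 arrays, Epor on 9, Gata2 on 6, Pf4 and Itga2b on 3 each and Klf1 on 2. For the last 3 genes most values are therefore background readings, and differences between them carry little information.

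Total bone marrow from C57BL/6 donors was given to CD45.1+ wild-type mice after lethal irradiation, the floxed alleles were deleted 4 weeks later, and thymic cells negative for CD4 and CD8 were sorted 3 months after transplantation. Donors carried Cre-ERT2 alone (labelled WT), Ezh2flox/flox;Cre-ERT2 (Ezh2Δ/Δ), p53flox/flox;Cre-ERT2 (p53Δ/Δ) or Ezh2flox/flox;p53flox/flox;Cre-ERT2 (Ezh2Δ/Δp53Δ/Δ, here double-deleted), so that the tamoxifen-dependent recombinase was present in every group, WT included. From each genotype 1 array covered DN1 cells (CD44+CD25-, the most immature gate), 1 covered DN2 cells (CD44+CD25+) and 1 covered DN3 cells (CD44-CD25+). A further 2 arrays held leukemic DN2 cells of double-deleted mice 13 and 19 with early T cell precursor acute lymphoblastic leukemia (ETP-ALL_13 and ETP-ALL_19). Removal of the recipients' own surviving cells, pooling of animals and the time at which the leukemic cells were sorted were not given in the sources used here. The description of the sort speaks of bone marrow where the other labels speak of thymus. Because each genotype and stage had a single array, stages were compared over 4 genotypes and genotypes over 3 stages, and a stage effect particular to a genotype could not be tested.

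Levels are log2 of the background-subtracted signal divided by the 75th percentile of the array, so that 0 marks that percentile. The 75th percentile itself lay between 61.3 and 524 signal units and the share of probes well above background ran from 40.3% to 50.4%. The arrays lay on 4 slides: slide 1 held all WT arrays and the double-deleted DN2 and DN3, slide 2 all Ezh2Δ/Δ and p53Δ/Δ arrays, slide 3 the double-deleted DN1 and slide 4 both leukemias. Trp53 was not well above background on the 3 p53Δ/Δ arrays. It was well above background in double-deleted DN1, DN2 and DN3, at -3.86, -2.40 and -0.48, against 0.11 to 1.68 on the 6 arrays with intact p53. Double-deleted DN3 thus lay closest to the arrays with intact p53. In the leukemias Trp53 read -5.86 (ETP-ALL_13, not well above background) and -3.29 (ETP-ALL_19, well above background). The Ezh2 probe was well above background on all 14 arrays, and since its place relative to the deleted exons is not known here, it checks nothing. All 10 T lineage genes were well above background on 13 of 14 arrays (9 of 10 on ETP-ALL_13, which lacked Ptcra). Xist was well above background on the 3 Ezh2Δ/Δ arrays (1.77 to 2.57) and on no other. The Y-linked gene Ddx3y was not well above background on those 3 arrays (-5.33 to -4.77) and was on all others (0.69 to 2.10). By these 2 genes the Ezh2Δ/Δ cells were female and all other cells male. In every comparison that uses the Ezh2Δ/Δ arrays, also that with p53Δ/Δ on slide 2, genotype and sex cannot be told apart.

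The zinc finger factors GATA1 and GATA2 bind WGATAR sites and share partners such as FOG1 (gene Zfpm1), TAL1 and LMO2. GATA2 acts in stem cells, progenitors and mast cells, and GATA1 takes over in red cell, megakaryocyte, mast cell and eosinophil maturation, where KLF1 and the erythropoietin receptor (Epor) serve the erythroid branch and platelet factor 4 (Pf4) and integrin alpha IIb (Itga2b, CD41) the megakaryocyte branch. Cpa3 encodes the carboxypeptidase of mast cell granules and is also known to be transcribed in early haematopoietic and thymic progenitors. EZH2 is the catalytic subunit of Polycomb repressive complex 2, which places the repressive methyl mark on lysine 27 of histone H3, often at promoters rich in CpG.

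The 250 bases before the annotated start are shown for the 4 genes whose levels the results turn on (RefSeq, GRCm38.p6, 5′ to 3′ on the gene's strand), with capitals marking a GATA motif on either strand, spelled NGATAN with A or T as the first base and A or G as the last. Gata2 has 2 annotated starts, at chr6:88193641-88193890 and chr6:88198414-88198663 (both plus strand). The window of Epor is chr9:21963577-21963826 (minus strand), that of Cpa3 chr3:20242182-20242431 (minus strand) and that of Gata1 chrX:7967911-7968160 (minus strand).
Gata2, upstream start: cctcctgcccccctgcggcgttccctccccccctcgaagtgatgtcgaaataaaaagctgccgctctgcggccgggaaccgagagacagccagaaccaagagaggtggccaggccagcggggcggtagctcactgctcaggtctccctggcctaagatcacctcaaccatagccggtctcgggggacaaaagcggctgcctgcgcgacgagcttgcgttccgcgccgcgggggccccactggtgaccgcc
Gata2, downstream start: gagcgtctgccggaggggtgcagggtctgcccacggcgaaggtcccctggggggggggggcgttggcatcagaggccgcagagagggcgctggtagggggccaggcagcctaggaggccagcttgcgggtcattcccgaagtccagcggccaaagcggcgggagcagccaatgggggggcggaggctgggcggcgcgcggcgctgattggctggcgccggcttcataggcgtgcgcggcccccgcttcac
Epor: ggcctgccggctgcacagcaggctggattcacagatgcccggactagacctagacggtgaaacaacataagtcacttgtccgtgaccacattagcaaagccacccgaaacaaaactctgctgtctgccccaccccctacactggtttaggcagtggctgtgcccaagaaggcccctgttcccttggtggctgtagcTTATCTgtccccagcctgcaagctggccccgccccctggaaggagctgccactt
Cpa3: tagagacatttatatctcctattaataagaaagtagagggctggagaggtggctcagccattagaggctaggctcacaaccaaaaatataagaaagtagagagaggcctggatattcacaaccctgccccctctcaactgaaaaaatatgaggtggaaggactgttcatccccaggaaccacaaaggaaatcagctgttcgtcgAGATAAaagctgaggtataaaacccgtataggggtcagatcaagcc
Gata1: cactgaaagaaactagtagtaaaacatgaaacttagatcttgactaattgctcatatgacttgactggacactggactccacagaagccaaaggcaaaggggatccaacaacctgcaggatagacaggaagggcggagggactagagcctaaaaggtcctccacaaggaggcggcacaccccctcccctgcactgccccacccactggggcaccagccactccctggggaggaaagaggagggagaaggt

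The Gata2 windows held 22 and 24 CpG, against a median of 6 over 32851 windows of the same length, and 14.8% and 12% of all windows held at least as many. The Epor window held 6 CpG, Cpa3 and Klf1 3 each, Gata1 and Itga2b 2 each and Pf4 1. A GATA motif was found in 3 of the 8 windows of the 7 genes, those of Epor (its first base 54 bases before the start), Cpa3 (46 bases) and Klf1 (80 bases), and 26.5% of all windows held at least 1. The Gata2 windows held the CACCC-type motif CCNCNCCC 1 and 6 times, Epor 4 times and Gata1 3 times, and 45.9% of all windows held it. The arrays carry no measure of binding or methylation at these sites.

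Gata1 was present at a narrow range of levels in every non-leukemic population and stood above that range in the leukemias. Its level was -0.49, -0.65 and -0.35 in WT DN1, DN2 and DN3. It was -0.26, 0.55 and 0.45 in Ezh2Δ/Δ, -0.07, 0.66 and 0.01 in p53Δ/Δ and 0.20, -0.24 and -0.60 in double-deleted cells, in the same stage order. In ETP-ALL_13 it was 1.83 and in ETP-ALL_19 2.04, both above the highest of the 12 non-leukemic arrays (0.66, p53Δ/Δ DN2). No stage was consistently the highest.

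Gata2 was either well above background or not measurable. In WT DN1, DN2 and DN3 it read -3.47, -3.44 and -5.62 and in p53Δ/Δ -5.67, -5.46 and -3.74, none of these 6 being well above background. In Ezh2Δ/Δ cells it was well above background in DN1 (-0.13) and not in DN2 (-3.54) or DN3 (-4.23). In double-deleted cells it was well above background at all 3 stages, at -0.62, -0.04 and -0.10. The leukemias held it at -0.62 (ETP-ALL_13) and -1.97 (ETP-ALL_19). All 6 arrays on which Gata2 was well above background thus came from cells with Ezh2 deleted, and the 2 remaining arrays from such cells fell within the range of those with Ezh2 intact.

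Klf1, the erythroid Krüppel-like factor, was close to background throughout. It read -3.89, -3.72 and -4.32 in WT DN1, DN2 and DN3, -5.19, -4.04 and -5.05 in Ezh2Δ/Δ and -4.12, -5.39 and -4.28 in p53Δ/Δ, none well above background. It passed in double-deleted DN1 (-3.15) and ETP-ALL_13 (-3.19), and did not in double-deleted DN2 (-3.66), DN3 (-4.53) or ETP-ALL_19 (-4.90).

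Epor was well above background on all 6 non-leukemic arrays with Ezh2 deleted and on 2 of 6 with Ezh2 intact. In WT it read -4.43 and -4.55 in DN1 and DN2, neither well above background, and -2.23 in DN3. In p53Δ/Δ it was -2.99 in DN1 and not well above background in DN2 (-4.10) and DN3 (-4.94). It was -2.80, -0.89 and 0.83 in Ezh2Δ/Δ DN1, DN2 and DN3 and -1.80, -1.69 and -0.14 in double-deleted cells, so that the highest value of both genotypes was in DN3. Within each stage the 2 arrays with Ezh2 deleted lay above the 2 with Ezh2 intact, but WT DN3 (-2.23) lay above Ezh2Δ/Δ DN1 (-2.80), so the sets of 6 overlapped when stages were mixed. The leukemias, which also lack Ezh2, were low at -3.44 (ETP-ALL_13) and -3.81 (ETP-ALL_19, not well above background).

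The megakaryocyte genes were detected on single arrays. Pf4 was well above background in Ezh2Δ/Δ DN1 (-3.04), p53Δ/Δ DN2 (-3.32) and ETP-ALL_19 (-1.50). Elsewhere it read between -5.34 and -5.68 in WT, -2.91 and -5.39 in Ezh2Δ/Δ DN2 and DN3, -5.69 and -5.34 in p53Δ/Δ DN1 and DN3, -5.93, -6.17 and -6.17 in double-deleted DN1, DN2 and DN3, and -5.87 in ETP-ALL_13. The leukemias thus differed, with only ETP-ALL_19 of the 2 holding measurable Pf4. Itga2b was well above background in WT DN2 (-2.40), double-deleted DN1 (-3.58) and double-deleted DN2 (-2.81). It read -4.46 and -5.57 in WT DN1 and DN3, -3.73, -4.37 and -5.08 in Ezh2Δ/Δ, -4.88, -3.32 and -4.74 in p53Δ/Δ, -6.10 in double-deleted DN3 and -3.91 and -4.14 in ETP-ALL_13 and ETP-ALL_19.

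Cpa3 was well above background in every population, and its lowest values were in WT DN3 and in one of the leukemias. It was 3.40, 5.89 and 0.28 in WT DN1, DN2 and DN3 and 4.60, 5.89 and 3.78 in Ezh2Δ/Δ. It was 2.90, 4.15 and 2.89 in p53Δ/Δ and 5.57, 4.93 and 4.56 in double-deleted cells. In WT, Ezh2Δ/Δ and p53Δ/Δ the DN2 array was the highest of its genotype, and in double-deleted cells DN1 was. ETP-ALL_13 lay at 4.93, as high as double-deleted DN2, and ETP-ALL_19 at 0.02, the lowest of all 14 arrays.

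**Figure D1:**
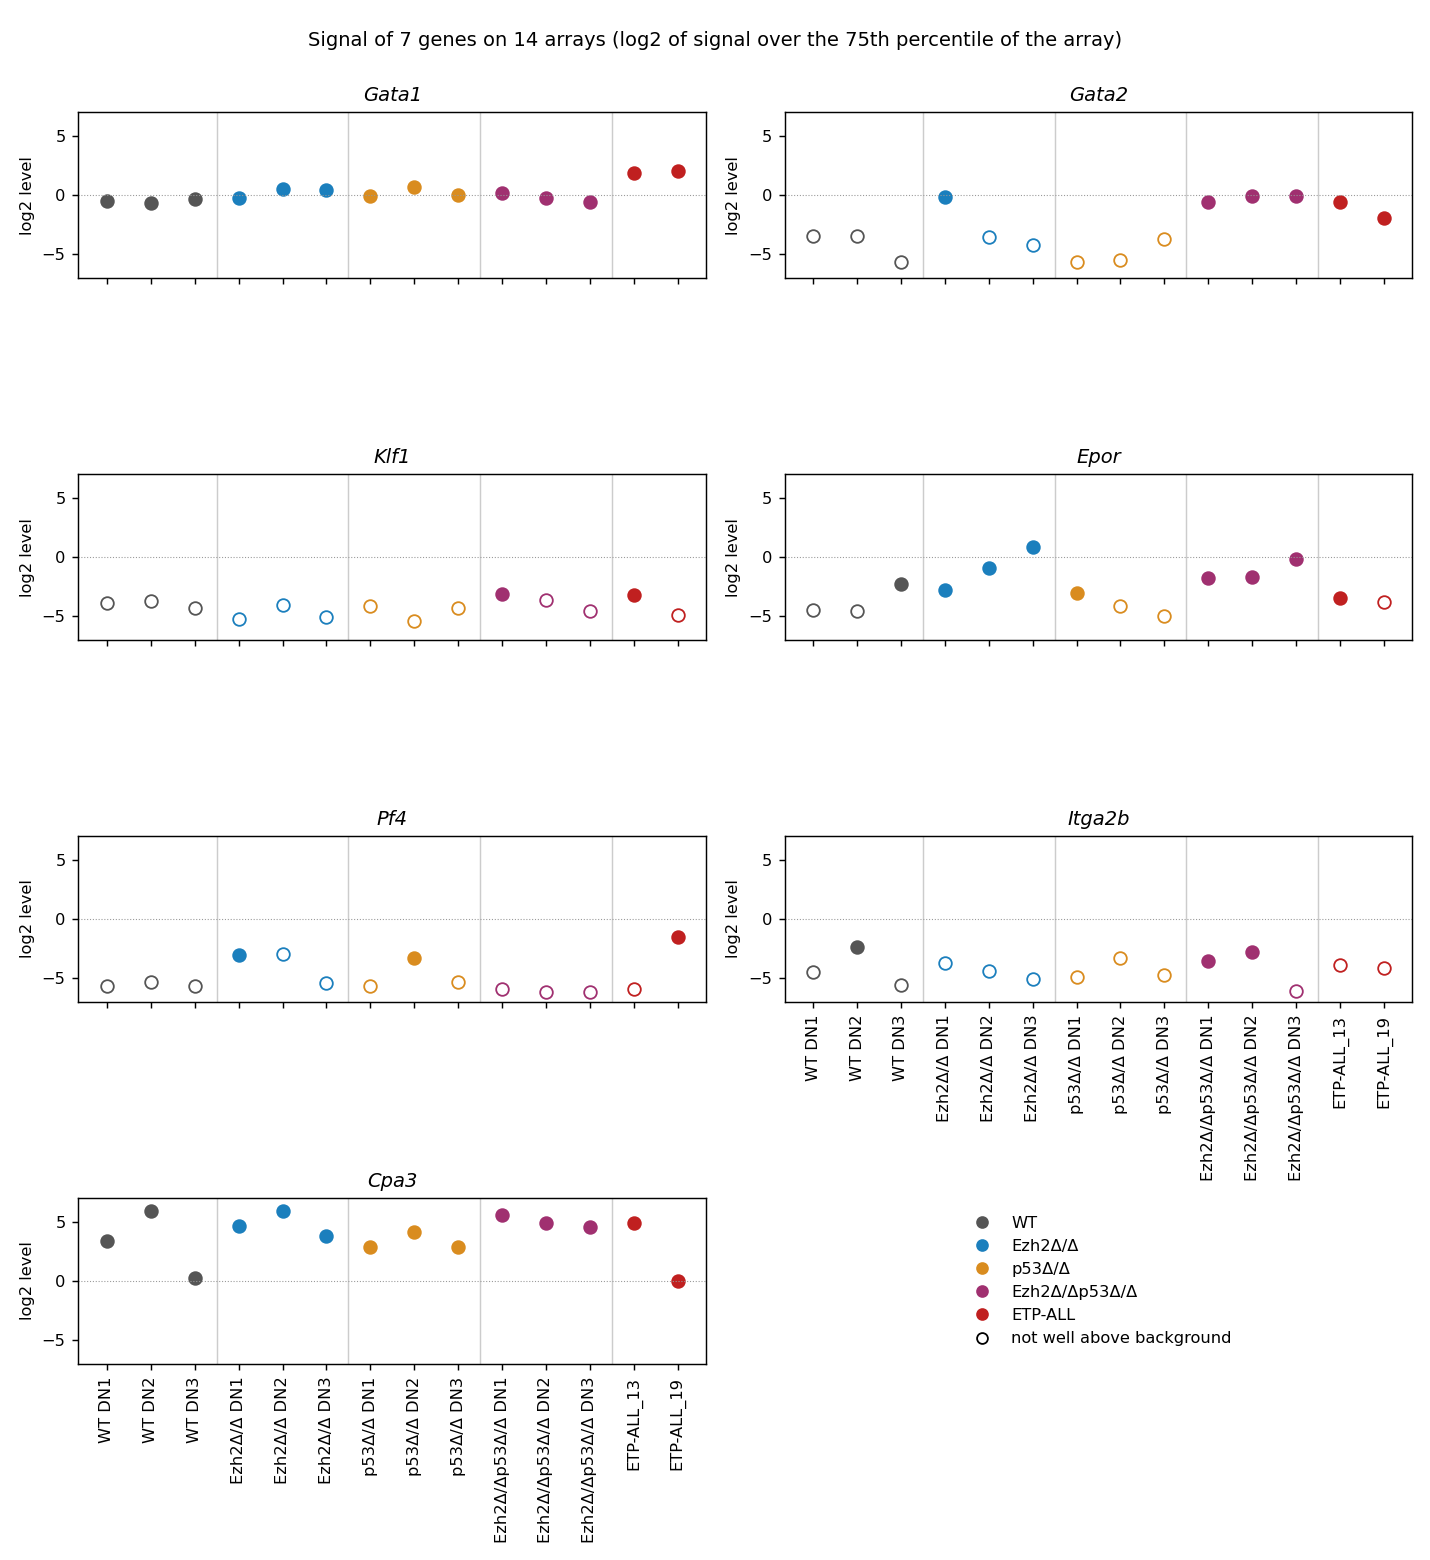
Level of each gene on each of 14 arrays (log2 of signal over the array's 75th percentile), coloured by genotype, 1 point per array. Open points are not well above background. Gata1 stands highest on the 2 ETP-ALL arrays (1.83 and 2.04), and every filled Gata2 point belongs to cells with Ezh2 deleted.

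Over the 12 non-leukemic arrays the additive fit assigned 71.8% of the variance of Gata2, 63.5% of that of Epor and 55.5% of that of Pf4 to genotype, and 68.1% of that of Itga2b and 39.3% of that of Cpa3 to stage. For Itga2b genotype took 0.967%. Gata1 (50.9% genotype, 43.3% left over) and Klf1 (41.2% genotype, 49.6% left over) were less well accounted for. These shares describe the 12 arrays, and the part given to genotype includes any difference between slides.

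No member passed the test for a difference between stages. In the step from DN1 to DN2, which added the CD25 surface receptor, 0 of 7 members passed (limma on 27067 features, Benjamini-Hochberg adjusted p under 0.05), where 1.40% of all features did, and the largest member difference was that of Cpa3 (mean 4.12 in DN1 and 5.21 in DN2, n = 4 arrays a stage, limma adjusted p = 0.408). Its stages overlapped, and 0 members had an unadjusted p under 0.05 in this step. From DN2 to DN3 0 of 7 passed, where 0.0222% of all features did, and 3 (Pf4, Itga2b and Cpa3) had an unadjusted p under 0.05. Cpa3 was lower in DN3 than in DN2 in all 4 genotypes, with log2 steps of -5.61 in WT, -2.11 in Ezh2Δ/Δ, -1.26 in p53Δ/Δ and -0.37 in double-deleted cells. Its average step was -2.34 ± 0.71 (mean level 2.88 against 5.21, n = 4 arrays a stage), with a 95% interval from -3.95 to -0.72, unadjusted p = 0.00981 and limma adjusted p = 0.512. Whether this step was larger in WT than in the other genotypes was not tested. Itga2b read lower in DN3 (-5.37) than in DN2 (-3.23), and the groups did not overlap. No DN3 array and 2 of 4 DN2 arrays were well above background. The difference was put at 1.69-fold, which is no lower bound (limma unadjusted p = 0.00231, adjusted p = 0.334).

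The labelled genotypes can be compared within slides only in part. Double-deleted and WT arrays shared slide 1 except for double-deleted DN1, and Ezh2Δ/Δ and p53Δ/Δ arrays shared slide 2. In double-deleted against WT cells 0 of 7 members passed in limma, where 7.19% of all features did, and Gata2 and Epor had an unadjusted p under 0.05. Gata2 came nearest: its mean was -0.25 ± 0.32 (SD, n = 3) in double-deleted cells and -4.18 ± 1.25 (SD, n = 3) in WT, the groups did not overlap and, because WT was never well above background, the difference is at least 10.6-fold (fitted log2 difference 3.93 ± 1.01, limma adjusted p = 0.0514). The adjusted p was 0.0221 without Ezh2Δ/Δ DN1, 0.0485 without p53Δ/Δ DN1, 0.038 without p53Δ/Δ DN3, 0.102 with slide as a block and 0.0788 on slide 1 alone, where the fitted difference was 4.46. Over 21 alternatives the fitted difference ran from 1.80 to 4.53, so the bound of 10.6-fold holds for the main processing only. Epor was higher in double-deleted cells by 2.53 ± 0.85 (adjusted p = 0.0984, groups not overlapping) and Cpa3 by 1.83 ± 0.82 (adjusted p = 0.194). Gata1 (0.28 ± 0.32), Klf1 (0.20 ± 0.46), Pf4 (-0.53 ± 0.60) and Itga2b (-0.02 ± 0.59) had 95% intervals spanning 0, the widest being that of Pf4, from -1.88 to 0.82.

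In Ezh2Δ/Δ against p53Δ/Δ cells, all on slide 2, 0 of 7 members passed in limma, where 3.98% of all features did, and again Gata2 and Epor had an unadjusted p under 0.05. Epor was higher by 3.06 ± 0.85 in Ezh2Δ/Δ (mean -0.95 against -4.01, groups not overlapping, limma adjusted p = 0.086), and the adjusted p was 0.0276 without p53Δ/Δ DN1, whose level of -2.99 was the only p53Δ/Δ value well above background. Gata2 was put at 2.66-fold higher in Ezh2Δ/Δ (means -2.63 and -4.96, limma adjusted p = 0.252), with groups that overlapped. Since only 1 of 3 Ezh2Δ/Δ arrays was well above background, this fold is no lower bound. Cpa3 was higher by 1.45 ± 0.82 (adjusted p = 0.376).

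Averaging Ezh2Δ/Δ minus WT with double-deleted minus p53Δ/Δ sets 6 arrays with Ezh2 deleted against 6 with it intact and balances slides 1 and 2, apart from double-deleted DN1. Sex is not balanced, since by Xist and Ddx3y only the Ezh2Δ/Δ cells were female. This average was chosen after the levels had been seen and adds no independent support to the preceding comparisons. Gata2 and Epor were called in it, 2 of 7 members, where 3.95% of all features were. Gata2 was put at 5.31-fold higher with Ezh2 deleted (means -1.44 ± 1.91 and -4.57 ± 1.12, SD, n = 6). This is no lower bound, since 4 of 6 arrays with Ezh2 deleted were well above background. Its fitted log2 difference was 3.12 ± 0.72 (limma adjusted p = 0.0483). Epor was higher by 2.79 ± 0.60 (means -1.08 ± 1.29 and -3.88 ± 1.04, SD, n = 6; fold 6.94, adjusted p = 0.0369). Both calls rest close to the threshold. With slide as a block the adjusted p was 0.0706 for Gata2 and 0.0901 for Epor, at differences of 3.42 and 2.81. For Gata2 the call was lost without any 1 of 11 of the 12 non-leukemic arrays, the exception being p53Δ/Δ DN3, with adjusted p between 0.053 (without Ezh2Δ/Δ DN1, difference 2.47) and 0.121 (without double-deleted DN2 or DN3). For Epor it was lost without WT DN1 or DN2, Ezh2Δ/Δ DN2 or DN3, p53Δ/Δ DN2 or any double-deleted array, with adjusted p between 0.0634 and 0.11. Both genes were higher with Ezh2 deleted in 20 of 20 alternatives, and the size ran from 1.21 to 3.67 for Gata2 and from 1.01 to 3.31 for Epor. Cpa3 was higher by 1.64 ± 0.58 (adjusted p = 0.166), and Gata1, Klf1, Pf4 and Itga2b had fitted differences between -0.05 and 0.24. The median difference was 0.24 over the 7 members and -0.03 over all features.

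The corresponding average for p53 deletion called 0 of 7 members, where 7.92% of all features were called, and 0 had an unadjusted p under 0.05 in limma. The largest member differences were Gata2, 0.80 ± 0.72 (adjusted p = 0.523), and Pf4, -0.77 ± 0.42 (adjusted p = 0.284).

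**Figure D2:**
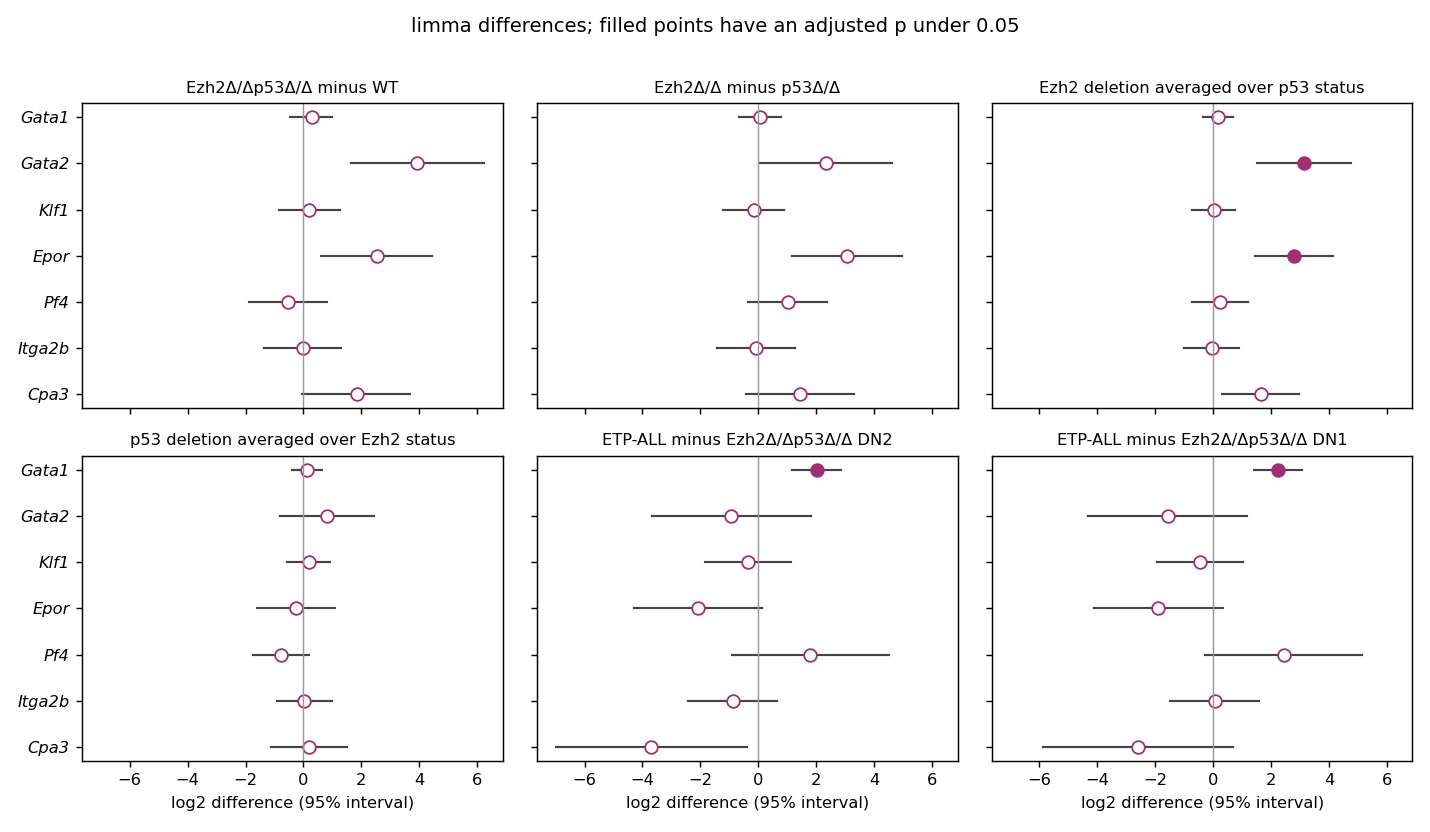
Fitted log2 difference of each gene (point) with its 95% interval (line) in 6 comparisons; filled points have a limma adjusted p under 0.05. Gata2 and Epor lie to the right of 0 in the comparisons that differ in Ezh2, and Gata1 in both leukemia comparisons (2.01 and 2.24); for genes near background the points are fitted values, not measured folds.

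The remaining genotype comparisons set slide 2 against slides 1 and 3, so that genotype and slide cannot be told apart, and a large share of all features was called in each. In Ezh2Δ/Δ against WT 2 of 7 members passed, where 35.3% of all features did, which is near the background. Epor was higher by 2.78 ± 0.85 (limma adjusted p = 0.0315; means -0.95 and -3.74), a call lost without WT DN1, WT DN2, Ezh2Δ/Δ DN2 or Ezh2Δ/Δ DN3 (adjusted p 0.0983 to 0.126). Pf4 was put at 1.25-fold higher (means -3.78 and -5.56, limma adjusted p = 0.0455), with 1 of 3 Ezh2Δ/Δ arrays well above background. The Pf4 call was lost without any WT array, Ezh2Δ/Δ DN1 or DN2, p53Δ/Δ DN3 or double-deleted DN1 or DN3 (adjusted p 0.0519 to 0.17). Gata1 was higher by 0.74 ± 0.32 (adjusted p = 0.102) with groups that did not overlap. Gata1 lies on the X chromosome, and by Xist and Ddx3y the Ezh2Δ/Δ cells were female and the WT cells male. The part of this in the Gata1 values was not tested. In p53Δ/Δ against WT 0 of 7 members passed (0 at an unadjusted p under 0.05 in limma), where 36.5% of all features did, and Gata1 was again nearest, at 0.69 ± 0.32 (adjusted p = 0.121).

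In double-deleted against p53Δ/Δ cells 2 of 7 members passed, where 31.6% of all features did. In the main processing Gata2 was at least 13.9-fold higher (means -0.25 and -4.96, limma adjusted p = 0.00871). It kept an adjusted p of 0.04 or less under 19 of 19 alternatives, with log2 differences from 1.19 to 5.79. The smallest of these lies below that bound, which holds for the main processing only. Epor was higher by 2.80 ± 0.85 (limma adjusted p = 0.0335), a call lost without p53Δ/Δ DN2 or DN3 or any double-deleted array (adjusted p 0.0695 to 0.102; the difference was 1.61 without p53Δ/Δ DN3). It was also lost with normexp, where the difference was 0.44 (adjusted p = 0.2), and with quantile normalization (adjusted p = 0.0521). In double-deleted against Ezh2Δ/Δ cells 1 of 7 passed, where 30.8% of all features did. Pf4 was put at 1.88-fold lower (means -6.09 and -3.78, limma adjusted p = 0.0191), with no double-deleted array and 1 of 3 Ezh2Δ/Δ arrays well above background. That call was lost without Ezh2Δ/Δ DN1 (0.0787), Ezh2Δ/Δ DN2 (0.0738) or double-deleted DN2 (0.0937). The test of whether the effect of Ezh2 deletion differed with p53 status called 1 of 7 members, where 46.0% of all features were called. That member was Pf4, at -3.09 ± 0.85 (limma adjusted p = 0.0161).

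In the leukemias the member that changed was Gata1. Against the fitted level of double-deleted DN2 cells 1 of 7 members passed, where 2.48% of all features did: Gata1 was higher by 2.01 ± 0.38 (fold 4.02, n = 2 leukemias, limma adjusted p = 0.0253). The call was lost without WT DN2 (0.0519), double-deleted DN2 (0.187), double-deleted DN3 (0.065), ETP-ALL_13 (0.0655) or ETP-ALL_19 (0.0712), at differences between 1.83 and 2.11. Against double-deleted DN1 cells 1 of 7 passed, where 3.41% of all features did, and Gata1 was higher by 2.24 ± 0.38 (fold 4.73, adjusted p = 0.0147). This call stood in 19 of 19 alternatives (adjusted p at most 0.0471). Both leukemias were on a slide of their own, so leukemia and slide cannot be told apart. The time of their sort was not given, so a difference in time cannot be told apart either.

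No other member passed in either leukemia comparison, and Cpa3 and Pf4 differed between the 2 leukemias. Cpa3 differed by -3.69 ± 1.47 from double-deleted DN2 (limma adjusted p = 0.233), with ETP-ALL_19 at 0.02 and ETP-ALL_13 at 4.93, and without ETP-ALL_13 the difference was -6.14 (adjusted p = 0.0443). Pf4 was measurable in ETP-ALL_19 and not in ETP-ALL_13, and without ETP-ALL_13 its difference from double-deleted DN1 was 4.62 (adjusted p = 0.0366) against 2.44 with both (adjusted p = 0.312). Epor differed by -2.08 ± 0.99 from double-deleted DN2 (limma adjusted p = 0.308) and by -1.89 ± 0.99 from DN1 (adjusted p = 0.341), and neither leukemia overlapped with the double-deleted DN1 or DN2 array. Gata2 differed by -0.93 ± 1.22 and -1.57 ± 1.22 (adjusted p = 0.736 and 0.528).

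Mast cell and basophil genes were measurable on the 2 DN1 arrays on which Gata2 was measurable. Of 20 genes listed for these cells 19 were on the array and 14 were tested. All 14 were well above background in Ezh2Δ/Δ DN1, 13 in double-deleted DN1, 11 in WT DN1 and between 5 and 8 on each of the other 11 arrays. Fcer1a, the alpha chain of the high-affinity IgE receptor, read 0.16 in Ezh2Δ/Δ DN1 and -0.70 in double-deleted DN1, and was otherwise well above background only in ETP-ALL_13 (-3.15). Prss34, a mast cell and basophil protease, was well above background on those 2 DN1 arrays alone, at 2.04 and 0.99, as was the chymase Cma1 (-0.05 and -3.47). Mcpt4 lay at 0.73 and -0.56 there and at -2.39 in WT DN1. In bulk samples a larger share of such cells and more RNA per cell cannot be told apart.

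In double-deleted DN2 and DN3, where Gata2 stayed high, 6 and 7 of the 14 genes were well above background: Kit, Tpsb2, Mitf, Slc18a2, Csf2rb and Mcpt8 on both and Hdc in DN3, of which Kit, Tpsb2, Mitf and Slc18a2 were on all 14 arrays. On these 2 arrays Gata2 lay at -0.04 and -0.10, while Fcer1a (-6.03 and -5.58), Prss34 (-5.17 and -4.15), Cma1 (-5.92 and -5.91), Mcpt1, Mcpt2 and Mcpt4 were not well above background. Mcpt8, the basophil protease, was measurable there (-1.37 and -0.93) and in WT DN2 (-1.95). The summed level of the 14 genes, each as signal over the 75th percentile, was 25.4 in Ezh2Δ/Δ DN1, 15.4 in double-deleted DN1 and 6.87 in WT DN1, and 8.83 and 7.03 in double-deleted DN2 and DN3 against 9.49 and 3.3 in WT. It ran from 6.72 to 25.4 on the 6 non-leukemic arrays with Ezh2 deleted and from 3.3 to 13.4 on the 6 with it intact. These sums lean on Kit, the highest of the 14 genes on every array but WT DN3. Kit lay at 2.80 in WT DN2, 2.92 in p53Δ/Δ DN3 and 2.72 in double-deleted DN2. The sums are therefore not a level of mast cells or basophils alone. NK and B cell markers also stood highest in Ezh2Δ/Δ DN1, where NK genes summed to 195 and B cell genes to 54.4, against 21.3 to 86.5 and 6.13 to 8.78 in the other DN1 arrays. The B cell sum leans on Cd79b, at 5.41, 4.51 and 4.96 in Ezh2Δ/Δ DN1, DN2 and DN3. Myeloid genes summed to 128 in both WT and Ezh2Δ/Δ DN1. Progenitor genes summed to 13 in Ezh2Δ/Δ DN1, 20.9 in WT DN1 and 18.7 in double-deleted DN1. The part of any of these cells in the DN1 values of Gata2 was not tested. Without Ezh2Δ/Δ DN1 the averaged Gata2 difference was 2.47 (limma adjusted p = 0.053).

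**Figure D3:**
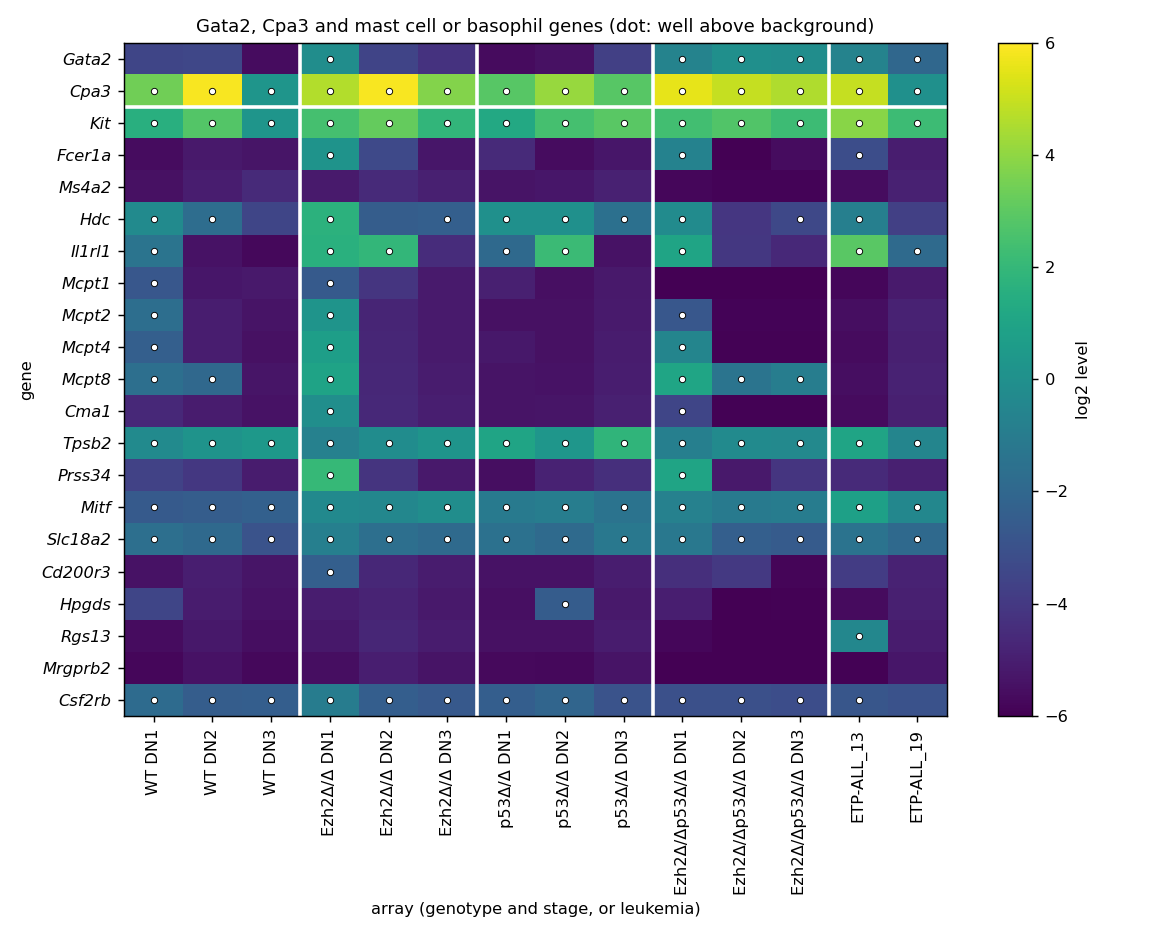
Levels of Gata2, Cpa3 and the 19 mast cell or basophil genes on the array (colour, log2 of signal over the 75th percentile, limited to ±6), with a dot where the signal was well above background. Fcer1a, Prss34 and Cma1 are bright in Ezh2Δ/Δ DN1 and double-deleted DN1, and Gata2 has dots in double-deleted DN2 and DN3 where they have none.

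Of the 14 tested mast cell and basophil genes, 0 were called from DN1 to DN2 or from DN2 to DN3, where 1.40% and 0.0222% of all features were. The listed median from DN1 to DN2 was -1.52, against 0.14 over all features. In double-deleted against WT cells 1 gene rose and 0 fell: Mitf, the melanocyte and mast cell transcription factor, was higher by 1.56 ± 0.23 (limma adjusted p = 0.00656), a call kept in 20 of 21 alternatives and lost on slide 1 alone (adjusted p = 0.107). In the average over p53 status Mitf rose by 1.21 ± 0.16 with Ezh2 deleted (limma adjusted p = 0.00478, called in 20 of 20 alternatives) and was the only 1 of the 14 called. The 2 parts of this average were unlike. Mitf rose by 2.18 in Ezh2Δ/Δ against WT, between slides. It was not called in double-deleted (mean -0.91) against p53Δ/Δ cells (-1.14). In the average for p53 deletion Mcpt1 fell, put at 1.14-fold with 2 of 6 arrays with p53 intact well above background (limma adjusted p = 0.0471, called in 5 of 20 alternatives). In the leukemias Mcpt8 fell, by at least 34.1-fold against double-deleted DN1 (adjusted p = 0.0344, called in 10 of 19 alternatives), and no other gene of the list was called in either leukemia comparison. In the 5 comparisons between slides, which call between 30.8% and 46.0% of features, Mitf rose in Ezh2Δ/Δ (2.18) and in p53Δ/Δ (1.33) against WT, and Tpsb2, a tryptase, rose in p53Δ/Δ (0.97, called in 7 of 19 alternatives). In double-deleted against p53Δ/Δ cells Mcpt8 rose at least 12.5-fold in the main processing and Tpsb2 fell (-1.54). The Mcpt8 call was kept in 17 of 19 alternatives and lost under normexp and without double-deleted DN3. Its fitted differences ran from 0.96 to 5.82, so that bound does not hold under every processing. Against Ezh2Δ/Δ cells Mcpt1 fell, put at 1.64-fold with 1 of 3 Ezh2Δ/Δ arrays well above background, and Csf2rb fell 2.15-fold (called in 15 and 11 of 19 alternatives). The interaction called Mcpt8 higher (called in 9 of 19 alternatives, with fitted values down to 0.03), and Mitf (-1.96, 19 of 19) and Hdc (-2.87, 8 of 19), the histamine-forming enzyme, lower.

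Of 20 listed erythroid genes 18 were on the array and 11 were tested, 4 globin genes and 7 others. Ermap, Hemgn, Tfrc and Tspo2 were well above background on 14 arrays, Icam4 on 9, Car1 on 8 and Slc4a1 on 6, and among the globins Hbb-b2 was on 6 and Hbb-b1 on 4. Alas2, Epb42, Sptb, Rhag, Kel and Trim10, which serve haem synthesis, the red cell membrane and blood group antigens, were well above background on no array, and Rhd was on 1, double-deleted DN1. Hba-a1 was well above background on 11 arrays, at 2.77, 0.68 and -5.47 in WT DN1, DN2 and DN3 and at 0.60, -0.81 and 0.53 in double-deleted cells. Hba-a1 and Hbb-bt were below in DN3 of WT, Ezh2Δ/Δ and p53Δ/Δ and above in DN3 of double-deleted cells. Globin genes are near-identical copies, so their probes can share signal. The summed level of the 11 tested genes ran from 52.4 to 85.9 on slide 2, which held the Ezh2Δ/Δ and p53Δ/Δ arrays. On slides 1 and 3, which held the WT and double-deleted arrays, it ran from 100 to 146. Both ranges included arrays with Ezh2 deleted and arrays with it intact. Slide 2 held only single deletions, so slide and genotype cannot be told apart here. These sums lean on Hemgn, the highest of the 11 genes on every array. It lay between 5.44 and 5.68 on slide 2 and between 6.42 and 6.65 on slides 1 and 3. The sums are therefore not a level of the whole list. In the leukemias the sum was 79.7 and 89.2.

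No erythroid list gene was called in 8 of the 13 comparisons: neither stage step, double-deleted against WT, Ezh2Δ/Δ against p53Δ/Δ, either average or either leukemia comparison. Between 0.0222% and 7.92% of all features were called in these 8, so that 0 of 11 is near the background. All calls lay in the comparisons between slides. Against WT, Car1 (carbonic anhydrase 1) fell at least 4.35-fold in Ezh2Δ/Δ and at least 4.72-fold in p53Δ/Δ, and Hemgn, Tfrc (the transferrin receptor) and Tspo2 fell in both. In Ezh2Δ/Δ 1 gene rose and 5 fell of 11, where 35.3% of all features were called, and in p53Δ/Δ 0 rose and 5 fell, where 36.5% were. In double-deleted cells 3 rose and 1 fell against each single deletion (31.6% of all features against p53Δ/Δ and 30.8% against Ezh2Δ/Δ), Car1 and Hemgn among those that rose and Slc4a1 the one that fell in both. In the interaction 5 were called higher and 1 lower, where 46.0% of all features were called. The direction of Car1 turned under normexp background correction, to -0.54 in double-deleted against Ezh2Δ/Δ and -0.40 against p53Δ/Δ. Against WT both Car1 calls were kept in 18 of 19 alternatives and lost under normexp. The fitted differences there were as small as -0.13 in Ezh2Δ/Δ and -0.26 in p53Δ/Δ, so the bounds for Car1 hold for the main processing only.

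All 18 listed megakaryocyte and platelet genes were on the array and 10 were tested; Gp1ba, Gp5, Ppbp, Vwf, P2ry12 and Tubb1 were well above background on no array, and Gp6 and Gp9 on 1 each. Gp9 was measurable in p53Δ/Δ DN2 (-2.01), where Pf4 was too. Itgb3, the integrin partner of Itga2b that other cells also use, was well above background on 14 arrays, highest in p53Δ/Δ DN2 (6.02) and lowest in WT DN3 (0.05).

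The genes of this list called in the slide-balanced comparisons were Pdgfa, Rab27b and Selp. Gp1ba, Gp5, Gp6 and Gp9 did not pass the filter and could not have been called. Pdgfa, a growth factor stored in platelets and made by many cells, rose by 4.51 ± 0.67 in double-deleted against WT cells (limma adjusted p = 0.00694), the only one of 10 called there and not called on slide 1 alone (adjusted p = 0.168), and by 2.70 ± 0.47 in the average for p53 deletion (adjusted p = 0.0158). Rab27b, a secretory granule GTPase, rose by 3.11 ± 0.56 in Ezh2Δ/Δ against p53Δ/Δ (adjusted p = 0.0202), where Selp (P-selectin) fell by at least 1.69-fold (adjusted p = 0.0168). The Selp call was kept in 15 of 21 alternatives and lost on slide 2 alone, under normexp and without any Ezh2Δ/Δ array or p53Δ/Δ DN3, with fitted differences from -1.77 to -0.02 and adjusted p up to 0.966. In the average for Ezh2 deletion Rab27b rose by 2.37 ± 0.40 (limma adjusted p = 0.0137, called in 19 of 20 alternatives). Selp fell there, put at 1.33-fold with 4 of 6 arrays with Ezh2 intact well above background (limma adjusted p = 0.0252, called in 7 of 20). In the comparisons between slides, where 30.8% to 46.0% of all features were called, 1 of 10 rose and 1 fell in Ezh2Δ/Δ against WT (35.3% of all features) and 3 rose and 2 fell in p53Δ/Δ against WT (36.5%). In double-deleted cells 2 rose and 1 fell against p53Δ/Δ (31.6%) and Pdgfa alone rose against Ezh2Δ/Δ (30.8%). No gene of the list was called in the stage or leukemia comparisons.

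**Figure D4:**
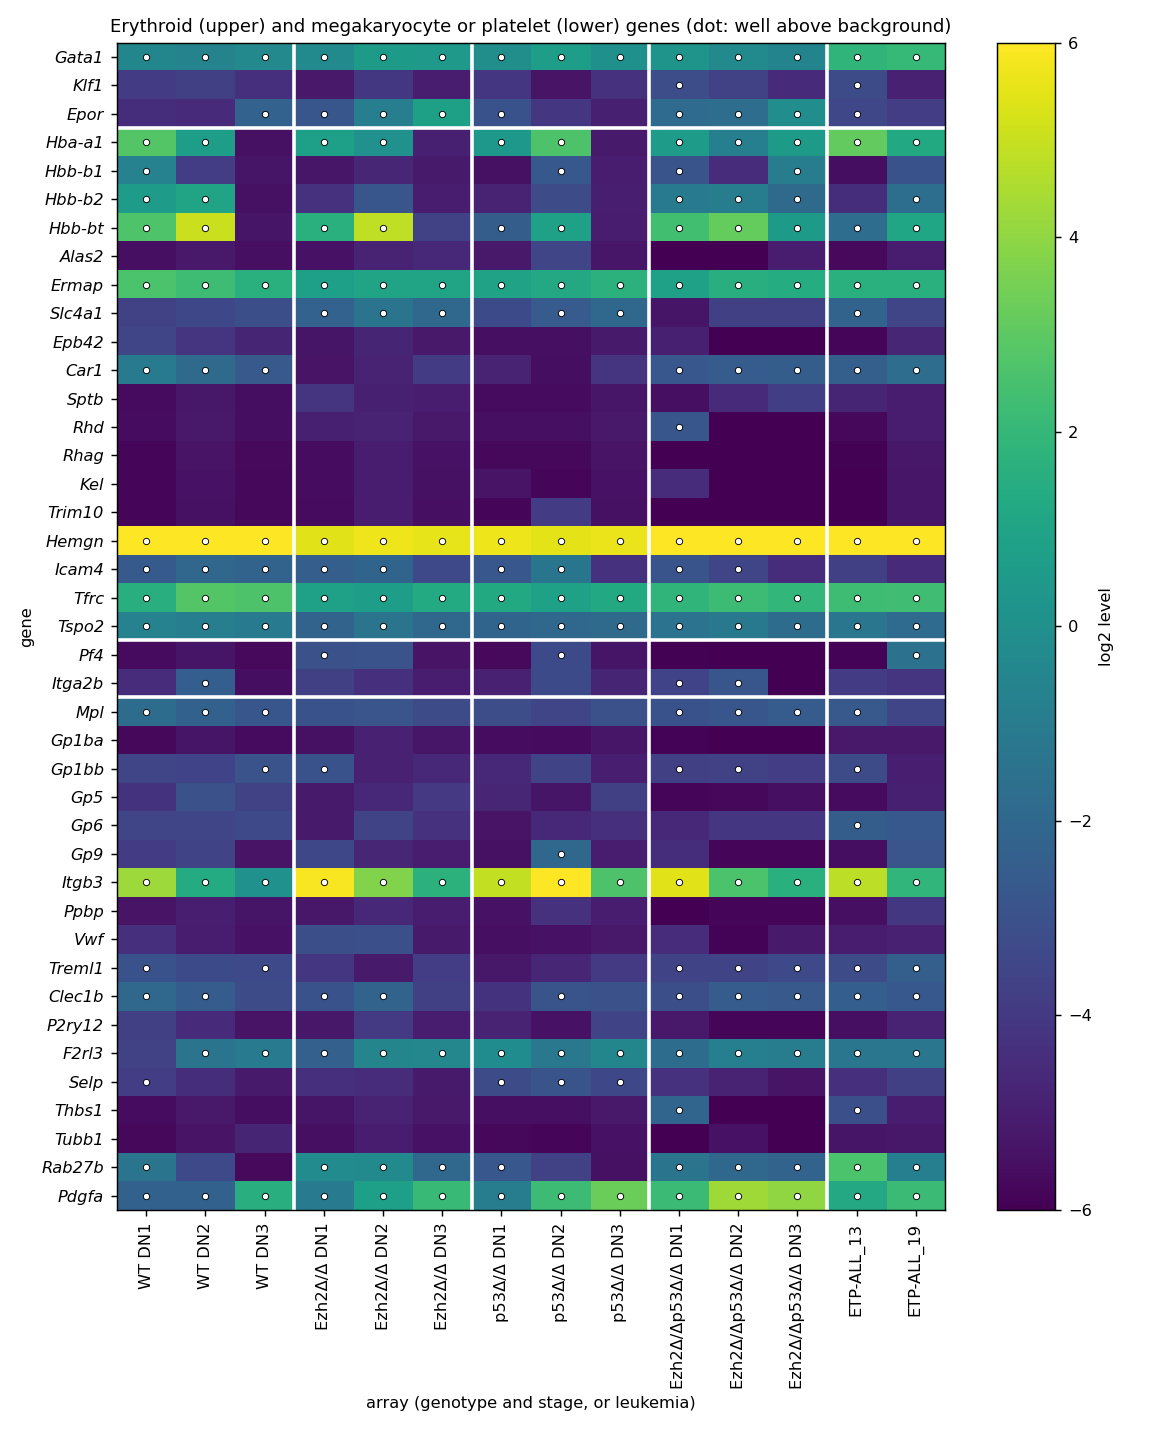
Levels of Gata1, Klf1 and Epor with 18 erythroid genes (upper block) and of Pf4 and Itga2b with 18 megakaryocyte or platelet genes (lower block) on each array (colour, log2 of signal over the 75th percentile, limited to ±6), with a dot where the signal was well above background. The rows without dots include Alas2, Epb42, Ppbp and Tubb1, and Gata1 is dotted on all 14 arrays.

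The 10 partner factors of GATA proteins were all tested, and 7 were well above background on every array. Gfi1b encodes a transcriptional repressor that is needed for erythroid and megakaryocyte development. In the leukemias it fell at least 8.2-fold against double-deleted DN2 (-3.66 against -0.31, limma adjusted p = 0.0268, called in 13 of 19 alternatives). None of the other 9 was called against DN2 or DN1. Lmo2 read -3.51 and -1.42 in ETP-ALL_13 and ETP-ALL_19, against 0.36 in double-deleted DN2, and Tal1 -3.33 and -3.00 against -0.90; neither was called. Gata3, the T cell GATA factor, lay at 6.87 and 4.91 in the leukemias and between 3.99 and 5.28 on the other arrays. No partner was called in the stage steps, in double-deleted against WT, in Ezh2Δ/Δ against p53Δ/Δ or in either average. Between slides, where 30.8% to 46.0% of all features were called, Zfpm1 (FOG1) rose in Ezh2Δ/Δ (1.29 ± 0.27, limma adjusted p = 0.00633) and p53Δ/Δ (fold 2.35) against WT, and Lmo2 rose in Ezh2Δ/Δ (2.23 ± 0.72, adjusted p = 0.0397, called in 8 of 19 alternatives). Gfi1b fell in p53Δ/Δ against WT (15 of 19) and rose in double-deleted against p53Δ/Δ (8 of 19), and Runx1 fell in double-deleted against Ezh2Δ/Δ (-1.35 ± 0.30, adjusted p = 0.0108) and against p53Δ/Δ (-1.04 ± 0.30, adjusted p = 0.0304).

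Among 13266 named genes well above background on at least 4 arrays, those most like each member over the 14 arrays were found by Pearson's r, given as a description since the arrays share slides. For Gata1 they were Lsr (0.908), Ttc33 (0.886) and Gm4951 (0.882). For Gata2 they were Evc (0.898), Fam20c (0.857) and Bcar3 (0.849), and for Epor Tceal5 (0.922), Lbhd2 (0.91) and Ngfr (0.893). For Cpa3 they were Arhgap6 (0.867), Mthfd2l (0.802) and Deptor (0.796). No gene of the erythroid, megakaryocyte, mast cell or GATA partner lists was among these 12.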

How the data were processed

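RNA from sorted cells (20 ng) was labelled with Cy3 and hybridised to 1-colour Agilent arrays. Per the file headers, the deposited spot intensity was background-subtracted and detrended by Feature Extraction 10.7.1.1. The authors' deposited value table, of intensity scaled to a 75th percentile near 1, was used only as a check and differed from the scanner values by at most 0.037 (log2) for the 7 genes. Log2 of the deposited signal minus each array's 75th percentile was computed. Control and outlier spots were left out and spots of a probe averaged. Of 55681 probes, 27656 were named through their RefSeq accession (GRCm38.p6) and 28025 were not; 0 were saturated. The probe with the highest mean stood for a gene. Features well above background on 2 or more of 14 arrays were fitted (27067) with limma 3.58.1 in R 4.3.3, with genotype and stage as additive terms on 12 arrays and a leukemia term on 14, and Benjamini-Hochberg adjustment at 0.05. The fit was tested on simulated data.

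Where no array of a group had a gene well above background, its fold was set against the higher of its own signal and the lowest signal well above background. It is a lower bound ("at least") if every array of the other group was well above background. Otherwise background readings entered the mean of that other group, and the fold is no bound ("put at"). Either kind of fold holds for the main processing only, and some alternatives gave smaller differences. Named besides the 7 genes were the called genes of the lists, at most 5 per list and comparison by size, and the 3 genes most like each member by Pearson's r; Klf1, Pf4 and Itga2b, measurable on fewer than 4 arrays, were not matched. Other list genes, including those well above background on no array, were named after their values were seen. Results for 2 genes of the erythroid list are not reported here. The members and lists were chosen with earlier results of these data known. With 1 array per genotype and stage, p-values measure the spread left by the additive fit, and the number of arrays limits the precision.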

Additional observations from a re-analysis of the deposited data

Results flagged for a closer look

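Pf4 in the DN1 gate stood apart on 1 of 4 arrays: Ezh2Δ/Δ DN1 lay at -3.04 and the nearest other array at -5.66, a gap above the 95% critical value of Dixon's test for 4 samples. The 7 genes at 3 stages gave 21 such groups, and chance flags about 1 in 20.

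The effect of Ezh2 deletion on Pf4 differed with p53 status by -3.09 on the log2 scale (limma adjusted p = 0.0161), with 46.0% of all features called in the same test. This difference and the slides cannot be told apart, and Pf4 was well above background on 2 of the 12 arrays.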

How the results depend on the processing

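Every called member kept its direction in all alternatives run. The number of members called moved as follows. In Ezh2Δ/Δ against WT it was 2, and 1 with scaling on probes detected on all arrays, 1 with quantile normalization, 0 with no detection filter, 5 with normexp and 0 to 2 with 1 array left out. In p53Δ/Δ against WT it was 0, and 3 with normexp. In double-deleted against WT it was 0, and 1 with quantile, 3 with normexp and 0 to 2 with 1 array left out. In double-deleted against p53Δ/Δ it was 2, and 1 with quantile, 5 with normexp (Epor not among them) and 1 to 3 with 1 array left out; against Ezh2Δ/Δ it was 1, and 0 with quantile, 3 with normexp and 0 to 1 with 1 array left out. In Ezh2Δ/Δ against p53Δ/Δ it was 0, and 0 to 1 with 1 array left out. In the interaction it was 1, and 2 with detected-probe scaling, 0 with quantile, 5 with normexp and 1 to 3 with 1 array left out. In the leukemias it was 1, with 0 to 1 against DN2 and 1 to 2 against DN1 when 1 array was left out. In the average for Ezh2 deletion it was 2, and 1 with detected-probe scaling, 1 with quantile, 0 with no filter, 0 with slide as a block and 0 to 2 with 1 array left out; in that for p53 deletion it was 0, and 2 with normexp. The cause was not tested. Normexp on the median signal was chosen after seeing the data, since the planned version on the mean signal could not be run. It reversed Klf1 to 0.76 (Ezh2Δ/Δ against WT), 0.63 (p53Δ/Δ against WT), -1.03 and -1.16 (double-deleted against p53Δ/Δ and Ezh2Δ/Δ) and -1.79 (interaction), Epor to -1.13 (interaction), and Itga2b to 0.58, 0.48, -0.89, -0.99 and -1.47 in the same 5 comparisons as Klf1.

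The share of all features called ran over the alternatives from 0.0185% to 9.54% (DN2 against DN1), 0% to 0.048% (DN3 against DN2), 17.9% to 51% (Ezh2Δ/Δ against WT), 19.2% to 45.4% (p53Δ/Δ against WT), 1.3% to 36.4% (double-deleted against WT), 17.9% to 58.8% and 15.1% to 60.3% (double-deleted against p53Δ/Δ and Ezh2Δ/Δ), 0.34% to 4.23% (Ezh2Δ/Δ against p53Δ/Δ), 37.2% to 66.2% (interaction), 0.406% to 5.66% and 1.04% to 8.15% (leukemias against DN2 and DN1), and 1.63% to 5.28% and 1.57% to 26.6% (averages for Ezh2 and p53). With normexp the share of calls that were higher moved from 49.7% to 74.3% (Ezh2Δ/Δ against WT), 45.6% to 68.9% (p53Δ/Δ against WT), 51.7% to 18.2% (double-deleted against WT), 50.1% to 24.7% and 44.7% to 22.5% (double-deleted against p53Δ/Δ and Ezh2Δ/Δ), 45.0% to 24.3% (interaction), 51.6% to 66.5% (leukemias against DN1) and 39.5% to 15.6% (average for p53). With detected-probe scaling it became 37.1%, 67.3%, 58.3% and 54.2% in Ezh2Δ/Δ against WT, double-deleted against WT and Ezh2Δ/Δ, and the average for p53, and 40% from 16.7% of the few calls in DN3 against DN2. The median of all features moved by over 0.1 in several comparisons, among them the interaction, from -0.31 to -0.76 with normexp and -0.02 with detected-probe scaling, double-deleted against Ezh2Δ/Δ, from -0.16 to -0.45 and 0.04, and Ezh2Δ/Δ against WT, from 0.16 to 0.36 and -0.07. No paired analysis was possible because each genotype and stage had 1 array and the labels give no shared replicate numbers. Signal over background limits Klf1, Pf4 and Itga2b throughout, and Gata2 on the 6 arrays with Ezh2 intact and in Ezh2Δ/Δ DN2 and DN3.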

Other observations

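In ETP-ALL_13, 8 of the 14 tested mast cell and basophil genes were well above background and 6 were not, the proteases Mcpt1 (-5.81), Mcpt2 (-5.56), Mcpt4 (-5.65), Mcpt8 (-5.54), Cma1 (-5.63) and Prss34 (-4.55). The summed level of the 14 genes was 27.4 against 7.13 in ETP-ALL_19, and its highest members were Kit, the stem cell factor receptor (3.88), and Il1rl1, the IL-33 receptor (2.92), which lay at 2.24 and -1.83 in ETP-ALL_19. These genes were chosen after their values were seen.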
